A study of Homo sapiens with 22 samples.

Results

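The genes described here are 9 genes of heme synthesis and iron uptake, ALAS2, ALAD, UROS, UROD, CPOX, FECH, SLC25A37, TFRC and HMOX1, followed in K562 cells during treatment with the phorbol ester PMA. K562 is an established human leukemia line with erythroid features, and PMA drives it toward a megakaryocyte-like state. The members are all deposited regions that overlap a gene's RefSeq span or lie within 30 kb of it, which gave 272 regions of 409446 in the series. Of these, 75 of 95436 came from the table for H3K27ac (acetylated lysine of histone H3, a mark of active promoters and enhancers), 88 of 138731 from that for Jun (a partner in the AP-1 transcription factor), 41 of 66168 from that for CTCF (an insulator protein) and 68 of 109111 from that for Rad21 (a subunit of the cohesin ring). Wild-type K562 cultures received 25 nM PMA for 0, 6 or 72 h, so that the 0 h cells stand for the untreated state. H3K27ac, Jun and CTCF were profiled at all 3 times and Rad21 at 0 and 72 h, with 2 libraries in each of 11 groups and 22 libraries in all. Sample titles give the assay only as CNR, read here as CUT&RUN, where a nuclease held by an antibody cuts the DNA around the bound protein. It was run here on formaldehyde-fixed cells. Nothing in the labels says that the 2 libraries of a group came from separate cultures, so the p-values measure the spread between these libraries, which may be technical.

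Heme is built in steps that begin and end in the mitochondrion. ALAS2, the erythroid form of the first and rate-limiting enzyme, makes aminolevulinic acid. ALAD, UROS and UROD carry the intermediate through the cytosol, CPOX then oxidises coproporphyrinogen, and FECH inserts the iron into the ring. TFRC, the transferrin receptor, brings iron into the cell, SLC25A37 (mitoferrin) carries it into the mitochondrion, and HMOX1 degrades heme. Red cell precursors run this pathway at a high rate to supply hemoglobin, and megakaryocytes arise from a shared progenitor.

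The promoters of 4 members are printed to show which letters lie beside the H3K27ac regions described below. Each is the 250 bases before the gene's RefSeq start (GRCh38.p14), 5′ to 3′ on the gene's minus strand. Capitals mark matches, on either strand, to GATAA (GATA factors), TGANTCA (AP-1), CACGTG (E-box), TGACNNNGC (antioxidant response element core) or CACCC (KLF factors).
ALAS2, chrX:55030978-55031227: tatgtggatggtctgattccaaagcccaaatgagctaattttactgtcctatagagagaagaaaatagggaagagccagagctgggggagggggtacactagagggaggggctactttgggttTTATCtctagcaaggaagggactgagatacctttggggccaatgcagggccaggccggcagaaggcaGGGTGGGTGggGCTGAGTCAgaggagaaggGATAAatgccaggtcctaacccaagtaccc
CPOX, chr3:98593612-98593861: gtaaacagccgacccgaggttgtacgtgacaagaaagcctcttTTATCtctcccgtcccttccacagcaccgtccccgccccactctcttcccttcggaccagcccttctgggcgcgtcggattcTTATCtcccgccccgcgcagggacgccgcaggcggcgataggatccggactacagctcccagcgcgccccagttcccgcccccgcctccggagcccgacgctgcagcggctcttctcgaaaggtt
FECH, chr18:57586703-57586952: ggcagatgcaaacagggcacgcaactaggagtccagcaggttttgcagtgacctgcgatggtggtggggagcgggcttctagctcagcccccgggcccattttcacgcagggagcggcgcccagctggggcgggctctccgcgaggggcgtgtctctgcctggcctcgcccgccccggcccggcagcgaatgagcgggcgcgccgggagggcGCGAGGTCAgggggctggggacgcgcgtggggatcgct
TFRC, chr3:196082091-196082340: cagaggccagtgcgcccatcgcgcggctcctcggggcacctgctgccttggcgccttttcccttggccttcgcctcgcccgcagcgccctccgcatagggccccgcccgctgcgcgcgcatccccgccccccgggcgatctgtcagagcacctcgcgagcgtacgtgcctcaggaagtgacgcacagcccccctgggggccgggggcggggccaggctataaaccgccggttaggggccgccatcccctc

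The ALAS2 window held 2 matches to GATAA, 2 to CACCC and 1 to TGANTCA, and the last overlapped its 1 match to TGACNNNGC. CPOX held 2 matches to GATAA, FECH held 1 to TGACNNNGC, and TFRC held no match to the 5 motifs. Among 35116 RefSeq promoter windows of this length, 20.4% held GATAA, 6.57% TGANTCA, 6.34% CACGTG, 10.9% TGACNNNGC and 54.7% CACCC. A match describes the letters and is not evidence of binding. RefSeq promoter entries were found for 6 of the 9 genes.

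Values are given as CPM, the deposited count scaled by the TMM size of its library, and log2 fold changes and adjusted p-values come from edgeR's quasi-likelihood test with Benjamini-Hochberg adjustment over all regions of a table. A region is called when its adjusted p is under 0.05. The libraries summed to between 12634261 and 27266241 counts (H3K27ac), 4766421 and 18883962 (Jun), 2553677 and 6068421 (CTCF) or 4398797 and 7285286 (Rad21). Markers were read in H3K27ac at gene starts, or at the region of highest mean CPM in the span where no RefSeq promoter entry was found. The 9 of 11 erythroid markers with such a region all passed the test as lower at 6 and at 72 h. Their summed CPM was 834 to 841 at 0 h, 306 to 374 at 6 h and 246 to 266 at 72 h. Of 6 megakaryocyte markers with a region, 4 passed as higher and 1 as lower at 6 h, and 5 as higher and 1 as lower at 72 h. Their summed CPM was 139 to 142 at 0 h, fell to 112 to 119 at 6 h and was 238 to 247 at 72 h. The megakaryocyte markers PF4, PPBP, GP9 and SELP had no tested H3K27ac region at the place used. The same held for HBE1 and HBG1 (erythroid), CD14 and ITGAM (monocyte) and CD2, MS4A1 and PAX5 (lymphoid). Over all tested H3K27ac regions, 26.3% were lower and 32.3% higher at 6 h, and 38.1% lower and 43.4% higher at 72 h. Of 4 monocyte markers with a region, 1 passed as higher and 2 as lower at 72 h (summed CPM 112 to 118, then 78.5 to 78.7), and of 2 lymphoid markers 1 passed each way (17.7 to 22.6, then 14.4 to 14.6). The part of cell type shifts in the results below was not tested. In these bulk libraries, fewer cells with a mark and less of it per cell cannot be told apart.

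Most H3K27ac regions of the 9 genes were lower after PMA, with ALAD as the exception. All 75 member regions were tested. At 6 h, 50 were called, 44 lower and 6 higher, where 58.6% of all tested regions were called and 26.3% were lower. At 72 h, 63 were called, 53 lower and 10 higher, against 81.5% called and 38.1% lower over all regions. The median log2 fold change of the members was -0.88 at 6 h and -1.31 at 72 h, against 0.20 and 0.18 over all tested regions. Both comparisons use the same 0 h libraries. Scaling shifts these values: with TMM factors taken only from regions that hold a deposited peak in all libraries (all-peak scaling), the median of all regions was 0.79 at 72 h, and the members split into 42 lower and 15 higher with a median of -0.71. At 6 h total counts scaling gave 37 lower and 12 higher members, with medians of -0.55 for members and 0.53 for all regions.

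The time courses of single regions differed. Of the 75 regions, 24 were called lower at 6 h, at 72 h and again between 6 and 72 h, and 15 fell by 6 h and remained lower at 72 h with no call between 6 and 72 h. A further 7 were first called lower between 6 and 72 h, 5 were called lower only in the comparison of 72 with 0 h, and 7 passed in no comparison. Between 6 and 72 h, 41 regions (54.7%) were called, 33 lower and 8 higher. Of all regions 63.8% were called, 30.8% lower and 33.1% higher. All-peak scaling moved that split to 28 lower and 17 higher. Regions in a member's span and regions outside it in no other named gene's span gave like counts at 72 h, with 20 of 28 lower in the first and 23 of 28 in the second. Of the 19 regions that lay in another gene's span, 10 were lower and 6 higher at 72 h.

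**Figure D1:**
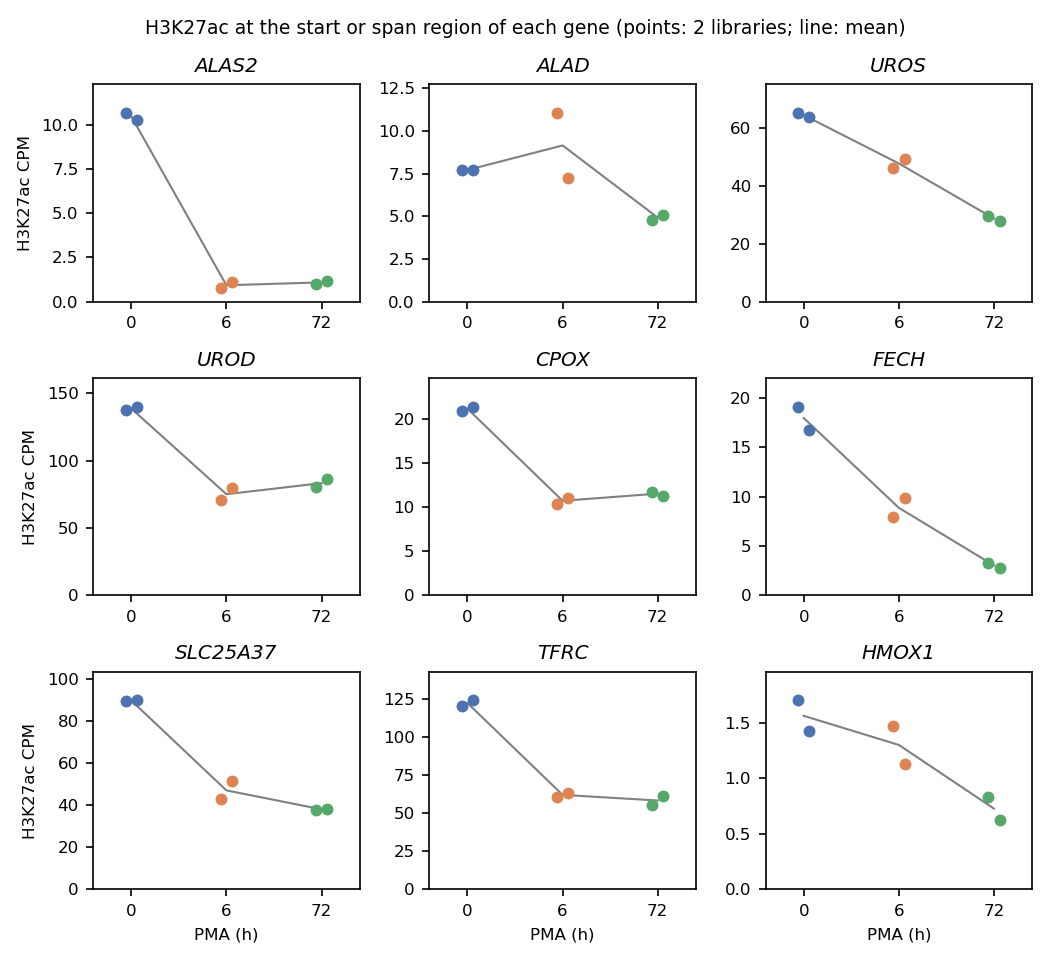
H3K27ac (CPM, linear axis from 0) against hours of PMA at the start region of each gene, or at the strongest region in the gene span for UROS, SLC25A37 and HMOX1. Each point is 1 of 2 libraries and the grey line joins the means. With the TMM scaling used here, both 72 h libraries lie below both 0 h libraries in all 9 panels. In the ALAS2 panel the fall had occurred by 6 h.

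At the starts of the genes, with TMM scaling, 7 of 9 H3K27ac regions were called lower at 6 h and 9 of 9 at 72 h. Over all tested regions 26.3% were lower at 6 h and 38.1% at 72 h, but all regions are not matched to start regions in signal. With all-peak scaling the calls at 72 h were lost at ALAD, UROD, CPOX and HMOX1, as given below. A start region is the tested region over the RefSeq start or, failing that, the nearest one within 2 kb of it. For UROS, SLC25A37 and HMOX1 the region of highest mean CPM in the gene span stands in. The median log2 fold change of these 9 regions was -0.93 at 6 h and -1.10 at 72 h.

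ALAS2, which encodes the rate-limiting enzyme, had the steepest fall at its start. The H3K27ac region chrX:55031178-55031767, 201 bases beyond the start in the direction away from the gene, held 10.7 and 10.3 CPM at 0 h, then 0.770 and 1.08 (6 h) and 1.01 and 1.17 (72 h). The libraries at 6 and 72 h lay below both 0 h libraries and overlapped each other. Its log2 fold change was -3.46 at 6 h (SE 0.27, edgeR adjusted p = 3.9e-11) and -3.26 at 72 h (SE 0.24, adjusted p = 4.0e-12). The span of the gene PAGE2B also covers this region.

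Inside ALAS2, H3K27ac was lost at 6 h and partly regained. The region chrX:55014324-55015886, whose middle lies 15872 bases into the gene from its start, held 23.1 and 24.9 CPM at 0 h, then 1.68 and 2.95 (6 h) and 6.15 and 7.50 (72 h). The groups did not overlap, with 72 h between 6 and 0 h. The edgeR log2 fold change was -3.32 (SE 0.20, adjusted p = 2.6e-13) from 0 to 6 h and 1.51 (SE 0.21, adjusted p = 1.3e-06) from 6 to 72 h. The neighbouring region at chrX:55016167-55016650 fell as far, from 6.30 and 6.64 CPM to 0.420 and 0.541, but held only 0.362 and 0.947 CPM at 72 h. Its difference between 6 and 72 h was within the error (log2 fold change 0.41, SE 0.50, edgeR adjusted p = 0.48).

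A full return was seen at a region far from the ALAS2 start, chrX:55056964-55057777, which lies 25987 bases outside the gene on the start side and in the span of PAGE2B. It held 2.50 and 3.37 CPM at 0 h, then 0.210 and 0.541 (6 h) and 3.55 and 3.02 (72 h). The 0 and 72 h libraries overlapped, and both 6 h libraries lay below them. Over the 14 H3K27ac regions of ALAS2, 10 were called lower at 6 h and 9 lower at 72 h, and between 6 and 72 h 4 were higher and 2 lower. Their summed CPM was 109 and 105 at 0 h, then 33.9 and 37.3 (6 h) and 39.6 and 45.2 (72 h).

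ALAD, the enzyme that joins aminolevulinic acid into porphobilinogen, had summed H3K27ac at 72 h within the range of the 0 h libraries. The sum over its 11 regions was 92.8 and 99.1 CPM at 0 h, then 83.0 and 76.6 (6 h) and 92.9 and 96.3 (72 h), so that the 0 and 72 h libraries overlapped. At its start, chr9:113401024-113402145 held 7.72 and 7.69 CPM at 0 h, then 11.1 and 7.23 (6 h) and 4.78 and 5.06 (72 h). The fall at 72 h (log2 fold change -0.65, SE 0.19, edgeR adjusted p = 0.0039) was not called with total counts scaling (-0.41, adjusted p = 0.066) or with all-peak scaling (-0.04, adjusted p = 0.86).

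The gains near ALAD lay over its neighbours. The region chr9:113368364-113370027, in the span of BSPRY, rose from 3.01 and 3.79 CPM at 0 h and 3.29 and 3.25 at 6 h to 13.6 and 14.1 at 72 h. Only the 72 h libraries stood apart (log2 fold change 2.02, SE 0.18, edgeR adjusted p = 1.9e-10). Another, chr9:113375348-113377081 in the span of HDHD3, went from 8.01 and 8.33 CPM to 18.2 and 20.8. Of the 10 member regions called higher at 72 h, 5 belonged to the ALAD window.

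UROS and UROD make and then decarboxylate uroporphyrinogen. In the UROS span, chr10:125815938-125818042 held 60.1 and 64.1 CPM of H3K27ac at first (0 h), then 26.9 and 27.2 (6 h) and 17.7 and 17.1 (72 h). Each time point lay below the one before, and the log2 fold change at 72 h was -1.84 (SE 0.11, edgeR adjusted p = 3.0e-14). The adjacent region chr10:125815361-125815809 fell further, from 9.03 and 9.91 CPM to 3.78 and 4.87 and then to 0.869 and 1.09. The region shared with BCCIP at the edge of the UROS span, chr10:125823037-125825115, held 65.4 and 63.8 CPM at 0 h and 29.8 and 27.8 at 72 h.

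One region near UROS appeared with PMA. The region chr10:125781983-125782674, 2306 bases from the UROS span, had 0 and 3 counts at 0 h, then 19 and 42 (6 h) and 62 and 62 (72 h). The ratio of CPM at 72 to 0 h was 27.5, with a 95% interval of 9.18 to 135 that covers counting error only. The Jun region chr10:125782470-125782911, which overlaps it, had 1 and 1 counts at 0 h, then 4 and 21 (6 h) and 49 and 48 (72 h), a ratio of 15.0 at 72 h (4.05 to 126). Both were called higher in the edgeR test at 6 and at 72 h.

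At UROD, the start region chr1:45011104-45013936 also lies in the span of HECTD3. It held 137 and 140 CPM at 0 h, then 70.5 and 79.6 (6 h) and 80.4 and 86.1 (72 h). The 6 and 72 h libraries lay below those at 0 h, and the log2 fold change at 72 h was -0.74 (SE 0.10, edgeR adjusted p = 6.1e-07). It was not called with all-peak scaling (-0.13, adjusted p = 0.11) or with loess offsets (-0.07, adjusted p = 0.31). A region in the span of EIF2B3, chr1:44985370-44988038, fell from 81.6 and 81.3 CPM to 46.9 and 45.9 and then to 29.97 and 30.4.

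CPOX, which oxidises coproporphyrinogen, lost H3K27ac at all 7 of its regions at 6 and at 72 h. The loss at its start stopped at 6 h: chr3:98593409-98594778 held 20.9 and 21.4 CPM at 0 h, then 10.4 and 11.1 (6 h) and 11.8 and 11.3 (72 h). The log2 fold change at 72 h was -0.88 (SE 0.13, edgeR adjusted p = 7.6e-07), and with all-peak scaling it was -0.27 (adjusted p = 0.054). A distal region went on falling. At chr3:98552651-98554251, with its middle 40160 bases from the start and 16237 bases or more outside the gene, H3K27ac was 21.6 and 19.2 CPM at 0 h, then 4.62 and 5.51 (6 h) and 0.326 and 0.983 (72 h). The groups did not overlap, and its log2 fold change at 72 h was -4.95 (SE 0.25, edgeR adjusted p = 2.1e-15).

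FECH, the enzyme that inserts iron into the ring, had the largest relative fall in summed H3K27ac at 72 h of the 9 genes. The sum over its 6 regions was 108 and 109 CPM at 0 h, then 40.4 and 45.9 (6 h) and 26.0 and 26.7 (72 h), which is 4.12-fold lower at 72 than at 0 h. All 6 regions were called lower at 6 and at 72 h. In the gene span, chr18:57582965-57584794 held 52.8 and 52.9 CPM at 0 h, then 17.5 and 18.4 (6 h) and 9.56 and 10.8 (72 h). The start region chr18:57585074-57585691, whose edge lies 1011 bases inside the gene from the start, fell from 19.1 and 16.8 CPM to 7.91 and 9.84 and then to 3.33 and 2.73. No library of one time point overlapped another in either region, and the start region's log2 fold change at 72 h was -2.56 (SE 0.17, edgeR adjusted p = 6.6e-13).

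**Figure D2:**
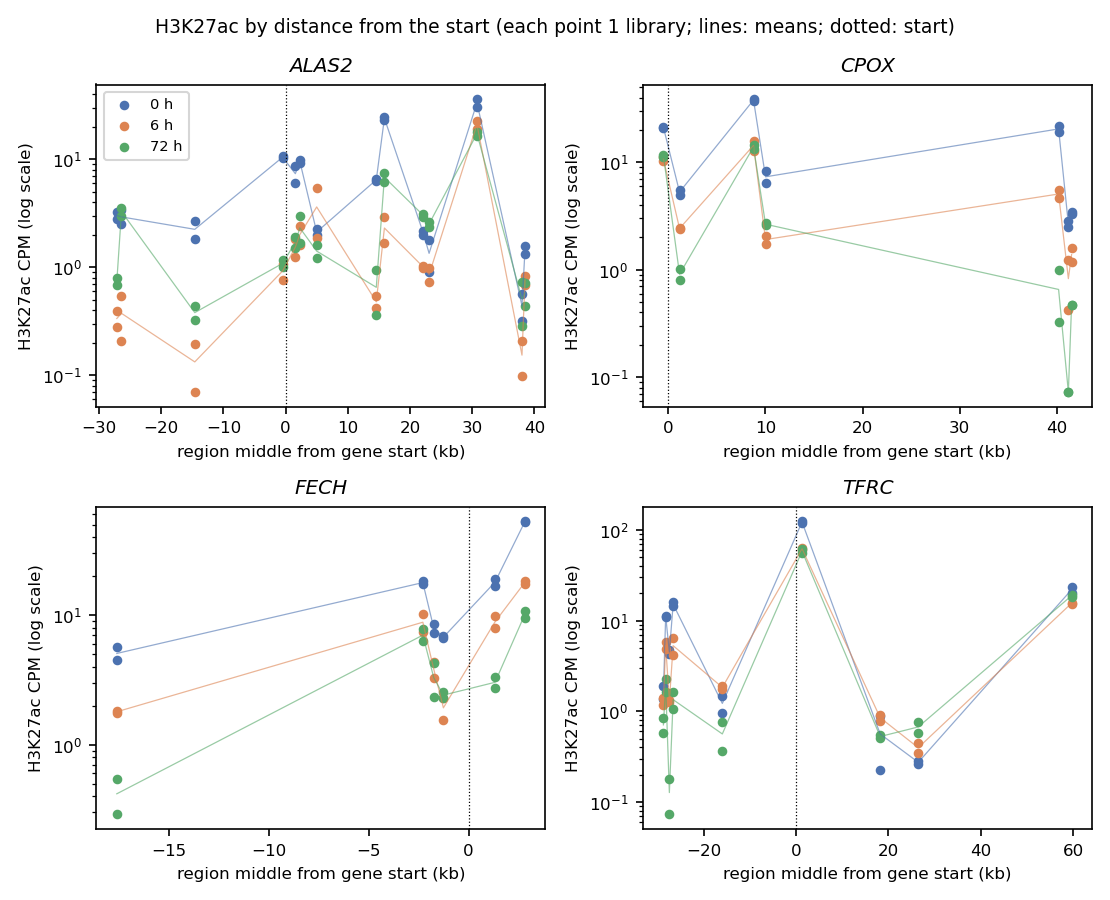
H3K27ac (CPM, log axis) against the distance in kb of each region's middle from the gene start, for the 4 genes whose promoters are printed. Negative distances lie outside the gene on the start side; each point is 1 library and the lines join the means of a time point. At 72 h the log2 fold change is -4.95 and -3.49 at the distal CPOX and TFRC regions given in the text, and -0.88 and -1.07 at the start regions. Those distal regions were named because they were among the largest falls. At ALAS2, a region with its middle 30752 bases from the start has -0.95, against -3.26 at the start. ALAS2 has most of its loss at 6 h.

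TFRC, the transferrin receptor, had its main region over the start, chr3:196078854-196082712, with 120 and 124 CPM at 0 h, then 60.7 and 63.0 (6 h) and 55.4 and 61.0 (72 h). The 6 and 72 h libraries overlapped and lay below those at 0 h, with a log2 fold change at 72 h of -1.07 (SE 0.10, edgeR adjusted p = 6.8e-10). On the start side, 26040 bases outside the gene, chr3:196108130-196109190 fell from 15.96 and 14.3 CPM to 6.44 and 4.13 and then to 1.63 and 1.06. Its log2 fold change at 72 h was -3.49 (SE 0.23, edgeR adjusted p = 3.4e-13), and that of its neighbour chr3:196109324-196109629 was -5.08 (SE 0.45, adjusted p = 1.5e-10). Over the 9 TFRC regions, 6 were called lower at 72 h, and the others were not called.

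SLC25A37, the mitochondrial iron carrier, had regions that moved in both directions. Its region of highest CPM, chr8:23526893-23529250 at an edge of the span, held 89.8 and 90.0 CPM at 0 h, then 42.8 and 51.3 (6 h) and 37.7 and 38.3 (72 h). The 6 regions beside the span at lower coordinates all fell, with log2 fold changes at 72 h from -3.00 to -1.50. The deepest of them, chr8:23514160-23514981, went from 31.1 and 32.2 CPM to 9.31 and 10.8 and then to 3.91 and 3.97.

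Within the SLC25A37 span, 3 regions were called higher and 3 lower at 72 h. The region chr8:23538707-23540075 rose from 9.94 and 8.85 CPM at 0 h to 17.4 and 20.6 (6 h) and 20.1 and 22.7 (72 h) (log2 fold change at 72 h 1.19, SE 0.14, edgeR adjusted p = 1.8e-08). The region chr8:23546607-23548457 held 33.5 and 36.3 CPM at 0 h, then 33.0 and 38.3 (6 h) and 36.3 and 43.3 (72 h), and was not called (log2 fold change 0.19, SE 0.11, edgeR adjusted p = 0.13). The gene's 14 regions thus split into 10 lower and 3 higher at 72 h. One of the 10, chr8:23590169-23590376, differed widely between replicates, with counts of 26 and 3 (0 h) and of 71 and 14 (6 h).

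HMOX1, which breaks heme down, had H3K27ac regions that differed in when they fell. Its region of highest CPM, chr22:35398880-35401147, lies 4673 bases outside HMOX1 in the span of MCM5 and held 54.3 and 52.0 CPM at 0 h, then 32.8 and 30.9 (6 h) and 18.6 and 20.03 (72 h). Both steps separated the libraries, and the log2 fold change at 6 h was -0.74 (SE 0.11, edgeR adjusted p = 1.6e-06). Its 1 region in the span, chr22:35393981-35394254, held 1.70 and 1.42 CPM at 0 h, then 1.47 and 1.13 (6 h) and 0.832 and 0.619 (72 h). Its call at 72 h (log2 fold change -1.10, SE 0.43, edgeR adjusted p = 0.021) was lost with DESeq2 (adjusted p = 0.099), with total counts scaling (0.070), with all-peak scaling (0.30), and without either of 2 libraries (0.097 without replicate 1 at 0 h, 0.13 without replicate 2 at 72 h). A region 8121 bases outside the span, chr22:35372115-35372975, held 12.3 and 12.4 CPM at 0 h, then 9.31 and 11.0 (6 h) and 4.16 and 4.15 (72 h). Its difference at 6 h did not pass the test (log2 fold change -0.28, edgeR adjusted p = 0.13), whereas that at 72 h did (-1.57, SE 0.17, adjusted p = 3.6e-09). All 6 HMOX1 regions were called lower at 72 h and 2 at 6 h.

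Summed over each gene's regions, H3K27ac at 72 h was below that at 0 h in both libraries for 8 of the 9 genes, ALAD being the exception. The largest falls at 72 h were those of FECH (4.12-fold), CPOX (3.25-fold), UROS (2.76-fold) and HMOX1 (2.67-fold). These sums move with the window and the scaling. Within 10 kb the log2 ratios at 72 h were -1.995 for FECH, -1.46 for UROS, -1.42 for HMOX1, -1.39 for ALAS2 and -1.31 for CPOX, so that the order changed. For ALAD the log2 ratio was -0.02, and it was 0.21 with total counts scaling and -0.33 within 10 kb. ALAS2 had the largest fall at 6 h, 3.01-fold, and stood 2.53-fold below 0 h at 72 h.

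**Figure D3:**
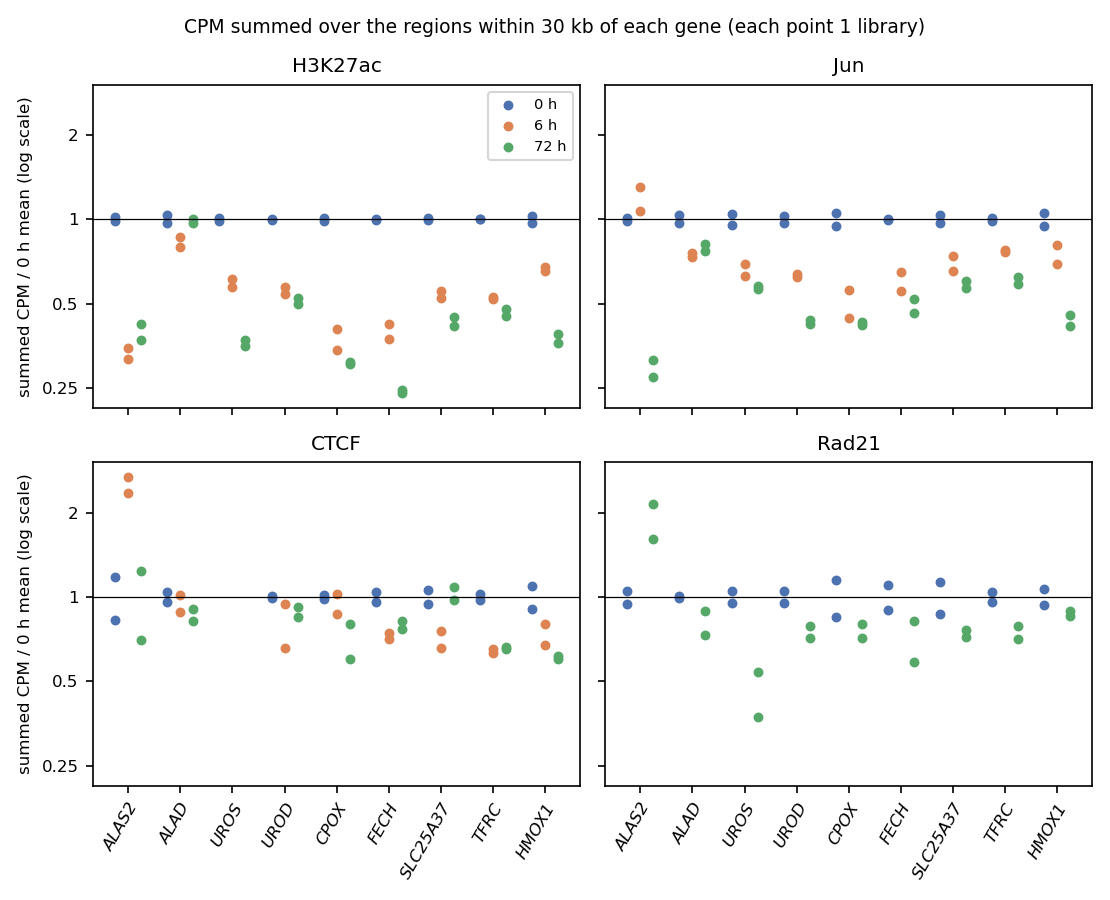
CPM summed over all regions within 30 kb of each gene, divided by the mean of the 0 h libraries (log axis), with a panel for each antibody and each point 1 library. With the TMM scaling used here, H3K27ac and Jun lie below 1 at 72 h for most genes, while the ALAS2 points above 1 in the Jun, CTCF and Rad21 panels come from 1 region described in the text.

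With TMM scaling, more Jun members were called lower than higher. Of 88 Jun regions, 84 passed the filter on low counts. At 6 h, 32 were called, 26 lower and 6 higher, against 25.3% called over all regions (12.2% lower). At 72 h, 53 were called, 43 lower and 10 higher, against 53.7% (25.7% lower), and the median log2 fold change was -0.76 against 0.17 over all regions. Between 6 and 72 h, 19 (22.6%) were called, 16 lower and 3 higher, against 26.2% (13.5% lower, 12.7% higher).

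The sign of the Jun change rests on the scaling. With all-peak scaling, the median of all regions at 72 h was 0.96, that of the members 0.02, and the called members split into 25 higher and 21 lower. Total counts scaling gave 19 higher and 28 lower, with medians of 0.73 for all regions and -0.20 for members. For 72 against 6 h these scalings gave 20 higher and 2 lower, and 7 higher and 4 lower. At 6 against 0 h they gave 9 higher and 21 lower, and 10 higher and 20 lower. The members' median lay below that of all regions under each of these scalings. The Jun libraries at 72 h held 17245043 and 18883962 counts and 8.58% to 9.07% of them on the mitochondrial chromosome, against at most 8600736 counts and at least 18.1% at 0 and 6 h, and the part of these differences in the Jun results was not tested.

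With TMM scaling, 6 of the 7 genes with a Jun start region were lower at 72 h and 2 at 6 h. Over all Jun regions 25.7% were lower at 72 h and 12.2% at 6 h. With all-peak scaling the calls at 72 h were lost at UROD (log2 fold change -0.79 with TMM and -0.0040 with all-peak scaling), TFRC (-0.79 and -0.0019), CPOX (-1.19 and -0.41) and ALAD (-1.32 and -0.54), and those of SLC25A37 and UROS passed under each alternative run. Total counts scaling lost the calls at UROD, TFRC and CPOX. Of all alternative runs, 7 lost the call at UROD and 5 that at TFRC. At SLC25A37, chr8:23528317-23529062 held 29.3 and 33.3 CPM at 0 h, then 11.8 and 13.1 (6 h) and 7.66 and 7.47 (72 h) (log2 fold change at 72 h -2.05, SE 0.19, edgeR adjusted p = 4.2e-08). In the UROS span, chr10:125816377-125817056 held 12.5 and 11.5 CPM at 0 h, then 3.40 and 3.65 (6 h) and 2.19 and 3.27 (72 h). FECH was the exception, with 2.77 and 3.87 CPM at 0 h and 2.95 and 2.04 at 72 h, which overlap.

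Distal Jun regions moved in both directions. At SLC25A37, chr8:23508539-23509403 fell from 28.1 and 24.4 CPM to 6.36 and 7.85 and then to 4.99 and 5.43 (log2 fold change at 72 h -2.33, SE 0.20, edgeR adjusted p = 2.2e-08). The region beside it, chr8:23506940-23508029, rose at 6 h from 18.8 and 17.8 CPM to 27.01 and 35.2 and stood at 21.2 and 18.5 at 72 h. Those neighbouring regions thus moved in opposite directions at 6 h. The rise (log2 fold change 0.77) kept its sign in the alternative runs, but its call was lost in 3 of them. Near HMOX1, chr22:35371594-35372331 fell from 16.8 and 17.9 CPM to 11.8 and 8.21 and then to 4.90 and 4.07. This region overlaps the H3K27ac region that fell late.

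Jun also rose at some regions. In the span of HDHD3 near ALAD, chr9:113375394-113376092 rose from 2.04 and 2.44 CPM to 5.90 and 4.93 and then to 11.9 and 13.5 (log2 fold change at 72 h 2.49, SE 0.28, edgeR adjusted p = 3.6e-07), over the H3K27ac region that rose there. Near TFRC, chr3:196019545-196019951 rose from 2.48 and 2.01 CPM to 7.49 and 6.20 (6 h) and 5.66 and 6.62 (72 h). Of the Jun regions that overlap an H3K27ac region, 34 of 56 were lower and 6 higher at 72 h, and of those that do not, 9 of 28 were lower and 4 higher. The difference between these shares was not tested.

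**Figure D4:**
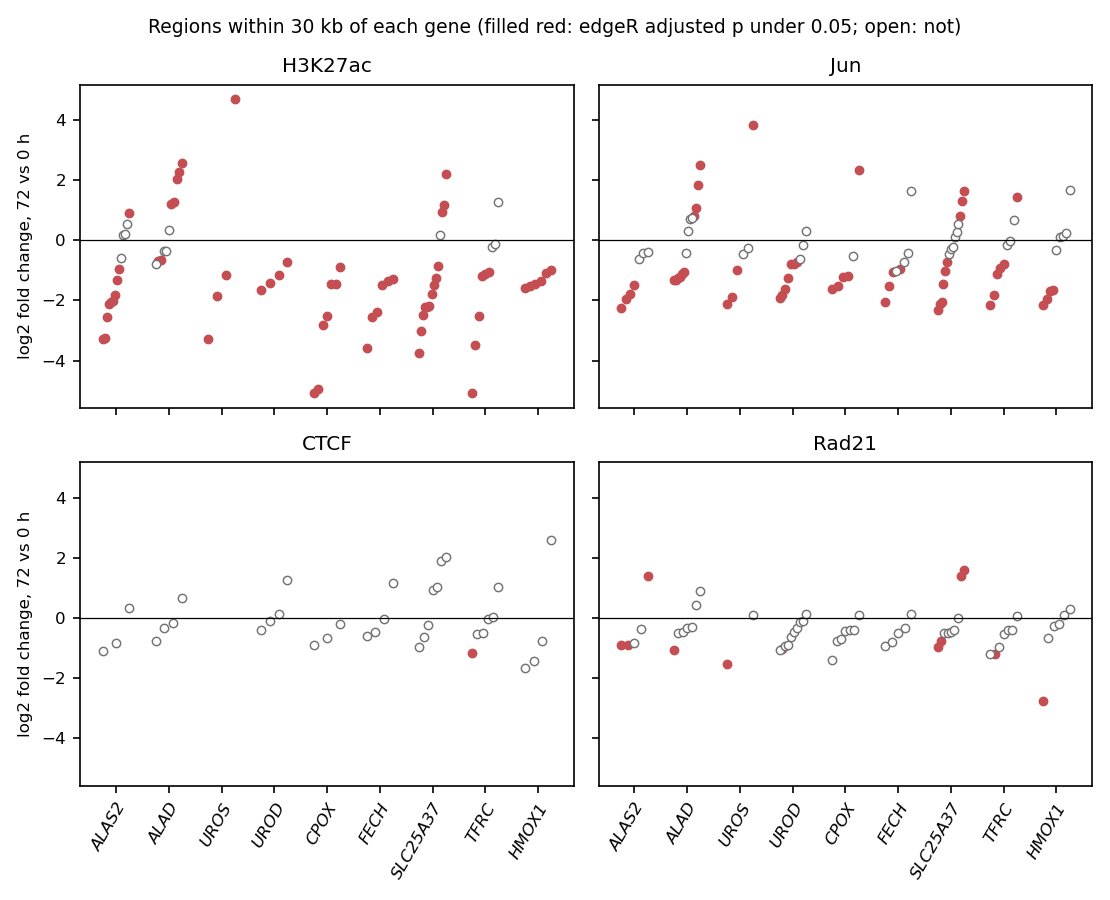
The log2 fold change at 72 against 0 h of every tested region, ordered by size within each gene, with a panel for each antibody. Filled red points passed the edgeR test at an adjusted p under 0.05 and open points did not. Most H3K27ac and Jun points lie below 0, the ALAD column holds the most H3K27ac gains, and few CTCF or Rad21 points are filled.

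Few CTCF regions of these genes were called, too few to set their share against that over all regions. Of 41 regions 35 were tested, UROS had none, and 1 (2.86%) was called in each comparison. At 6 h the 1 call was higher, where 2.65% of all regions were called (2.33% higher, 0.325% lower). At 72 h the 1 call was lower, where 6.79% were called (2.72% lower), and between 6 and 72 h the 1 call was lower, where 2.18% were called (1.73% lower). The calls at 6 h and between 6 and 72 h were both at the ALAS2 region with the same boundaries in all 4 tables, described below. The region lower at 72 h lay near TFRC, chr3:196022013-196022676, 59746 bases from the start to its middle, with 44.9 and 41.5 CPM at 0 h, then 24.0 and 22.8 (6 h) and 18.0 and 20.1 (72 h). Its libraries at 72 h lay below all others, and the log2 fold change was -1.18 (SE 0.25, edgeR adjusted p = 0.014). The call was lost with total counts scaling (adjusted p = 0.056), under which 2 other CTCF members were called, both higher, with a mean count of at least 50 (0.051) and without any 1 of the libraries at 0 or 72 h (0.10 to 0.16). H3K27ac at the same place was 23.6 and 20.3 CPM at 0 h and 18.3 and 19.3 at 72 h and was not called.

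Rad21 was tested at 58 of 68 regions at 72 against 0 h, and 12 were called, 9 lower and 3 higher, against 23.3% of all regions (7.91% lower, 15.4% higher). The median log2 fold change was -0.46 against -0.05. Of the 3 higher calls, 1 was the ALAS2 region with the same boundaries in all 4 tables, described below. The balance rests on single libraries: 4 members were higher and 1 lower without replicate 1 at 0 h, and 2 were higher and 1 lower without either replicate at 72 h. In the UROS span, chr10:125816087-125817240 fell from 16.5 and 16.7 CPM to 6.70 and 4.52 (log2 fold change -1.54, SE 0.30, edgeR adjusted p = 7.0e-04), where H3K27ac and Jun also fell. Its adjusted p was 0.066 without replicate 2 at 72 h. In SLC25A37, chr8:23547534-23548089 rose from 3.77 and 2.95 CPM to 8.04 and 9.80 (log2 fold change 1.38, SE 0.36, edgeR adjusted p = 0.0083), inside the H3K27ac region that was not called. That call was lost with DESeq2 (adjusted p = 0.074) and without replicate 2 at 72 h (0.083). Only 2 of the member regions passed with DESeq2, 1 higher and 1 lower, and with no filter on low counts the called members were 5 higher and 4 lower.

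One ALAS2 region needs separate mention. The region chrX:55025803-55026182, 4984 bases into the gene to its middle, has the same boundaries in all 4 tables, as do only 40 regions of the series. At this region CTCF was 44.6 and 70.4 CPM at 0 h, then 202 and 233 (6 h) and 46.3 and 98.6 (72 h), and Jun was 47.5 and 54.8, then 97.2 and 75.0, then 11.8 and 9.46. Rad21 rose from 65.9 and 63.5 CPM at 0 h to 142 and 196 at 72 h. Its changes were called in all 3 tables at 6 or 72 h, and in H3K27ac it was not called against 0 h.

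The 40 regions shared a direction in some comparisons. All 40 were higher for CTCF at 6 h (median log2 fold change 1.80), higher for Rad21 at 72 h (1.70) and lower for Jun at 72 h (-1.96), beside 1.92, 1.38 and -2.27 at the ALAS2 region. For CTCF at 72 h 12 of the 40 were called, all higher, and for H3K27ac at 72 h 2 were higher and 2 lower. In H3K27ac 16 of the 40 were called at 6 h, all higher (median 0.89). Between 6 and 72 h 17 were called there, all lower (median -0.89). The CTCF call at ALAS2 was lost without replicate 1 at 0 h (edgeR adjusted p = 0.22). Whether the signal at this region belongs to ALAS2 was not tested. Without it, the summed CPM of the other ALAS2 regions turned from higher to lower for CTCF at 6 h (log2 ratio 1.33 with it and -0.85 without), for Rad21 at 72 h (0.91 and -0.68) and for Jun at 6 h (0.25 and -1.12). For H3K27ac the log2 ratio was -1.59 with it and -1.71 without at 6 h, and -1.34 with it and -1.36 without at 72 h.

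Other genes of heme and iron handling were counted at their start regions. Of 34 such genes, 32 had an H3K27ac start region; 29 of these were lower at 6 h, against 26.3% of all regions, and 31 at 72 h, against 38.1%, with a median log2 fold change of -1.15 at 72 h against 0.18 over all regions. These counts use TMM scaling, and all regions are not matched to start regions in signal. Among regions with a mean count of at least 50, the median over all regions at 72 h was -0.03. With all-peak scaling the median of all regions was 0.79. Of the 66 genes in these lists and the marker lists, 45 had a RefSeq promoter entry. For the others, TFR2 among them, the region of highest mean CPM in the span was used. The counts thus mix regions at starts with strongest regions in spans. All 15 measured genes of heme synthesis and transport, all 3 of heme breakdown and 13 of 14 of iron uptake, storage and sensing were lower at 72 h. TFR2, a second transferrin receptor, had 159 and 176 CPM of H3K27ac at first (0 h), then 39.0 and 36.9 (6 h) and 10.7 and 11.3 (72 h) (log2 fold change -3.93, SE 0.12, edgeR adjusted p = 1.3e-19).

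SLC48A1, a heme transporter, went from 101 and 100.4 CPM to 14.3 and 12.1 at 72 h, and BLVRA, which reduces biliverdin, from 23.9 and 26.8 to 2.24 and 4.22. SLC40A1, the iron exporter ferroportin, went from 9.14 and 8.64 CPM to 0.688 and 0.692. These 4 genes had the largest changes among those called. In Jun, with TMM scaling, 24 of 31 start regions were lower at 72 h and 1 was higher, HMOX2, against 25.7% lower over all Jun regions; the Jun direction depends on the scaling, as given above. TFR2 again led, from 13.3 and 15.9 CPM of Jun at 0 h to 1.13 and 2.19 (6 h) and 0.761 and 1.06 (72 h).

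The authors' deposited tables also give a log2 fold change against 0 h and a label for each region. Their fold change at 72 h had the same sign as the edgeR value at 74 of 75 H3K27ac members and 84 of 84 Jun members. The H3K27ac and Jun labels often went against those fold changes, while in Rad21 all 1898 regions labelled up and all 87 labelled down had the matching sign. The label upLate in the authors' deposited table marks 20 H3K27ac members, and for 17 of them the authors' log2 fold change at 72 h is below 0. Over the whole H3K27ac table, regions labelled downEarly in the authors' deposited table have a median log2 fold change of 2.82 at 72 h. Regions labelled upLate and upEarly there have medians of 2.88 and 2.84. Of the 22063 upLate regions, 16072 have a value above 0, so over the whole table most upLate labels match the sign. The labels were not used here.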

How the data were processed

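The 9 genes, the other gene lists and the motifs were chosen with earlier results of these data known. In each of the 4 region tables the authors deposited whole-number counts for every library, beside their own log2 fold change, adjusted p-value and label, named in the file headers. The 22 deposited peak lists hold a position, a fold enrichment (a ratio) and −log10 p- and q-values for each peak, and served to count peaks near the genes and to find regions that hold a peak in all libraries. The submitters' processing notes name Trim Galore 0.4.3, BWA 0.7.17, SAMtools 1.9, deepTools 3.0.1, bedtools 2.26 and MACS2, and the builds hg19 and hg38 with no role. How regions were built and counted is not given in the sources used here. Regions on chromosome 20 reach position 64331078, which lies beyond the end of that chromosome in hg19, so coordinates are taken as GRCh38 and printed 1-based.

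Gene spans and names came from RefSeq GRCh38.p14, without strand or exons, so a region is placed only in or outside a span. The fit for an antibody took all its regions and times in edgeR 4.0.16 under R 4.3.3 (filterByExpr, TMM, quasi-likelihood test, Benjamini-Hochberg), with an adjusted p under 0.05 as a call and the SE taken as the log2 fold change over the square root of F. It was first tried on simulated counts with known changes. Named regions are, for each gene and antibody, the start region, the region of highest mean CPM, and the 3 largest changes in each direction per comparison against 0 h among called regions with non-overlapping libraries and a mean CPM at or above the median. Regions named beyond these, among them the UROS region that appeared with PMA, were chosen after their values were seen. Alternatives were other scalings, filters, windows, DESeq2 1.42.0, a replicate block and leaving out each library. Intervals on ratios of 3 or fewer counts are exact binomial at 95%. Replicates differed by more than sampling noise (chi-square per degree of freedom 2.16 to 8.06).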

Additional observations from a re-analysis of the deposited data

How the results depend on the processing

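Member calls were recounted under each alternative. H3K27ac counts at 6, 72 and 72 against 6 h (50, 63 and 41) stayed within 1.5 times except over narrower windows, with 31, 38 and 22 calls within 10 kb and 20, 23 and 13 in the spans alone. Leaving out 1 library gave 46 to 52, 55 to 64 and 36 to 40. Jun counts in the same order (32, 53, 19) were 18 and 33 within 10 kb for the first pair, and 10, 17 and 7 in the spans. A mean count of at least 50 gave 32 for Jun at 72 h, and for 72 against 6 h total counts scaling gave 11, loess 9 and DESeq2 8. Leaving out 1 Jun library gave 22 to 31, 36 to 58 and 3 to 16, and the lowest Jun counts for 72 against 6 h were 10 without replicate 2 at 6 h, 5 without replicate 1 and 3 without replicate 2 at 72 h. CTCF at 6 h (1) became 3 with total counts scaling and 0 without the ALAS2 region of shared boundaries. CTCF at 72 h (1) became 2 with total counts scaling or loess, 8 with only the times compared, and 0 if the mean count had to reach 50, within 10 kb or in the spans. CTCF at 72 against 6 h (1) became 0 with all-peak scaling, a mean count of at least 50, only the times compared, or without the ALAS2 region. Leaving out 1 CTCF library gave 0 to 2, 0 to 7 and 0 to 1. Rad21 (12) became 2 with DESeq2, 6 with a mean count of at least 50, 7 within 10 kb and 4 in the spans, and 3 to 12 without 1 library: 5 without replicate 1 at 0 h and 3 without either replicate at 72 h. Whether the replicate numbers pair the libraries was not settled. Correlations of same-numbered libraries were -0.02 to 0.12, and those of CTCF 0.08 to 0.12. A replicate block gave 50, 63 and 43 for H3K27ac, 30, 49 and 16 for Jun, 2, 3 and 1 for CTCF, and 13 for Rad21. Over all regions at 72 against 0 h, it raised the calls for CTCF from 3951 to 7141 and for Rad21 from 19527 to 21742. It lowered them for H3K27ac from 77289 to 76737 and for Jun from 71387 to 68510. Among the named regions, 1584 values kept their direction and side of the threshold, 90 lost and 15 gained a call, and 1 turned: the Jun region chr10:125824644-125825166, outside UROS and in the span of BCCIP, had a log2 fold change of -0.27 at 72 h, and 0.52 with all-peak scaling. Of the summed windows, 77 values moved by more than the replicate spread and 45 did not. The causes were not tested. With 2 libraries in a group and low CTCF and Rad21 counts, changes of small regions could not be resolved at this depth.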

Other observations

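The number of deposited peaks over the 9 windows followed the counts in part. For H3K27ac the libraries had 50 and 51 peaks at 0 h, then 33 and 40 (6 h) and 45 and 46 (72 h). At ALAS2 the count was 7 and 8 at 0 h, then 2 and 2 (6 h) and 7 and 7 (72 h), so that the peaks came back while summed CPM stayed low. For Jun the windows held 35 and 41 peaks at 0 h, then 17 and 31 (6 h) and 59 and 63 (72 h), the reverse of the fall in Jun CPM, and the 72 h libraries had the highest counts. Peaks for Rad21 numbered 41 and 38 at 0 h and 21 and 15 at 72 h.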
